A study of Mus musculus with 7 samples.

Results

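Microglia identity and phagocytic genes were followed in RNA sequencing libraries made from mPFC (medial prefrontal cortex, a frontal region near the midline) of 7 mice. The set holds 37 genes of the 25467 in the count table: genes that mark microglia, the resident macrophages of the brain, and genes for engulfing and digesting material. They were taken by symbol from a fixed list, which was drawn up with earlier results of these data known. All 37 were found and passed the low-count filter. The lowest count of any of them in any library was 18. Of the libraries, 4 came from mice given rhTSP1, a recombinant human form of thrombospondin-1 (TSP1 from here on), and 3 from mice given PBS, the saline control. No allele or genotype is named for either group. The sources used here give no strain, sex, age, dose, route or time. The comparison asks what thrombospondin-1, a secreted matrix protein that astrocytes make, does to gene expression in this region. The tissue is labelled only as brain, and its microglia markers Cx3cr1, P2ry12 and Tmem119 were present in every library, at a summed level of 118 to 151 CPM (counts scaled to library size, with TMM factors).

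Microglia survey the tissue with receptors for signals from neurons and damaged cells. Cx3cr1 binds the neuronal chemokine Cx3cl1, P2ry12 senses nucleotides and draws processes to injury, and Tmem119 is a surface protein of resting microglia. Engulfment uses a second group of genes: Fc receptors bind antibody-coated material, Trem2 binds lipids, and both signal through the adaptors Tyrobp and Fcer1g to the kinase Syk. Lysosomal enzymes then digest the cargo. The transcription factors Spi1 (PU.1) and Irf8 drive the macrophage programme, and Sall1 maintains microglial identity.

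The 2 sides of the comparison, sensors against phagocytic genes, are shown first by the DNA upstream of 3 of their genes. The promoters of Lyz2 and Ctss (phagocytic) and of P2ry12 (a sensor) are given from RefSeq (GRCm38.p6), 5′ to 3′ on the gene's strand, and they were chosen after the expression values and the sequences had been seen. Capitals mark AGGAAGT, a form of the PU.1 motif, on either strand, or 2 copies of GAAA that lie 2 bases apart, a core of the interferon regulatory factor motif. The Lyz2 stretch is chr10:117282322-117282522, minus strand, the Ctss stretch is chr3:95526536-95526785, plus strand, and the P2ry12 stretch is chr3:59262986-59263235, minus strand.
Lyz2: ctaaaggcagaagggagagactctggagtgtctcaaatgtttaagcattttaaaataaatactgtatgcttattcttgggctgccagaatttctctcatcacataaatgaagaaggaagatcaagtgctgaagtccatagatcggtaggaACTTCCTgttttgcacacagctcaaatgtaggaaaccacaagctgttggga
Ctss: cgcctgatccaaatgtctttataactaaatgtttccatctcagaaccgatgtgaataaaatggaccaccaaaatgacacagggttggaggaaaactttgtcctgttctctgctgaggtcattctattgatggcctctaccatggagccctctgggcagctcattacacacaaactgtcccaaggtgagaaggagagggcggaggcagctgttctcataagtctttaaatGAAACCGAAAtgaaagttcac
P2ry12: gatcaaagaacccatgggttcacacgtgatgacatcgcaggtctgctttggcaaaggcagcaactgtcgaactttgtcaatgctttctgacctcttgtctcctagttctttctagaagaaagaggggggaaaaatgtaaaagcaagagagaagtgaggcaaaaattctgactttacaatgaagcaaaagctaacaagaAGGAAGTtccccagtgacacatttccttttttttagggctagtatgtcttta
Of the 37 genes, 28 had a promoter in the RefSeq table. Within the 250 bases before the start, AGGAAGT was found for 7 of these 28 (25%: P2ry12, Lyz2, Fcrls, Sall1, Inpp5d, Cyth4 and Ptprc) and for 8.8% of all genes with a promoter in the table. The GAAA repeat was found for 2 of 28 (7.14%: Ctss and Aif1) and for 3.46% of all genes. The Ctss match lay 12 bases before the RefSeq start, the Lyz2 match 94 and the P2ry12 match 46. For Lyz2, the 49 bases next to that start are counted in the 94 but not printed, since GENCODE places them inside the gene. For P2ry12, GENCODE starts the gene at 59262871, outside the printed stretch, so the match lies farther from that start than from RefSeq's. Thus a sensor and a phagocytic gene shared the PU.1 letters. In all, 7 spellings were looked at, over the 250 bases and over the full 300-base windows, and both the spellings shown and the shorter window were chosen after their counts were known. The count depends on that choice. The longer GAGGAAGT was found for 1 of 28 (3.57%, against 2.79% of all genes) in 250 bases and for 5 of 28 (17.9%, against 3.69%) in 300 bases, and AGGAAGT for 10 of 28 (35.7%, against 10.7%) in 300 bases. In 250 bases, the other spellings were GGAAGT for 11 of 28 (22.2% of all genes), GGAAGTG for 6 of 28 (9.77%), GAGGAA for 14 of 28 (25.9%) and GAGGAACT for 1 of 28 (1.53%). A match is a description of the letters and not a bound site.

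The libraries held 15090336 to 20755167 counts. TSP1 replicate 4 stood apart in markers of striatum (328 CPM summed, against 118 to 137 in the other libraries) and of oligodendrocytes (8082 against 2961 to 5534), and TSP1 replicate 3 in red blood cell genes (342 against 43.5 to 123). Endothelial markers were below 0 in 6 of 6 (48.9% of the 17211 genes tested), with a median log2 fold change of -0.37. Their summed levels, 165 to 210 CPM with TSP1 and 224 to 285 with PBS, did not overlap. Astrocyte markers had a median of -0.16. Messenger RNAs of the mitochondrial genome were below 0 in 13 of 13 (median -0.24). Cytosolic ribosomal protein genes were below 0 in 79 of 80 (median -0.19). These values moved the same way as most genes described here, and their part in the results was not tested.

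Most of the set had lower fitted values with TSP1, with a median of -0.52 for the phagocytic genes and of -0.18 for the sensors. The difference between these medians was not tested. Fitted log2 fold changes (TSP1 minus PBS) were below 0 for 36 of 37 genes, against 48.9% of the 17211 genes tested, with a median of -0.28 against 0.004 for all genes. With edgeR's quasi-likelihood test, 0 of 37 reached an FDR under 0.05 (0% of all genes), and 0.0536 was the smallest FDR in the table. At an unadjusted p under 0.05, 21 of 37 were lower (5.44% of all genes) and 0 were higher (4.21% of all genes). All TSP1 libraries lay below all PBS libraries for 15 of 37 (5.26% of all genes). The 37 genes are not independent of each other, since they are read from the same tissue pieces. In bulk tissue, fewer microglia and less RNA per microglial cell cannot be told apart.

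**Figure D1:**
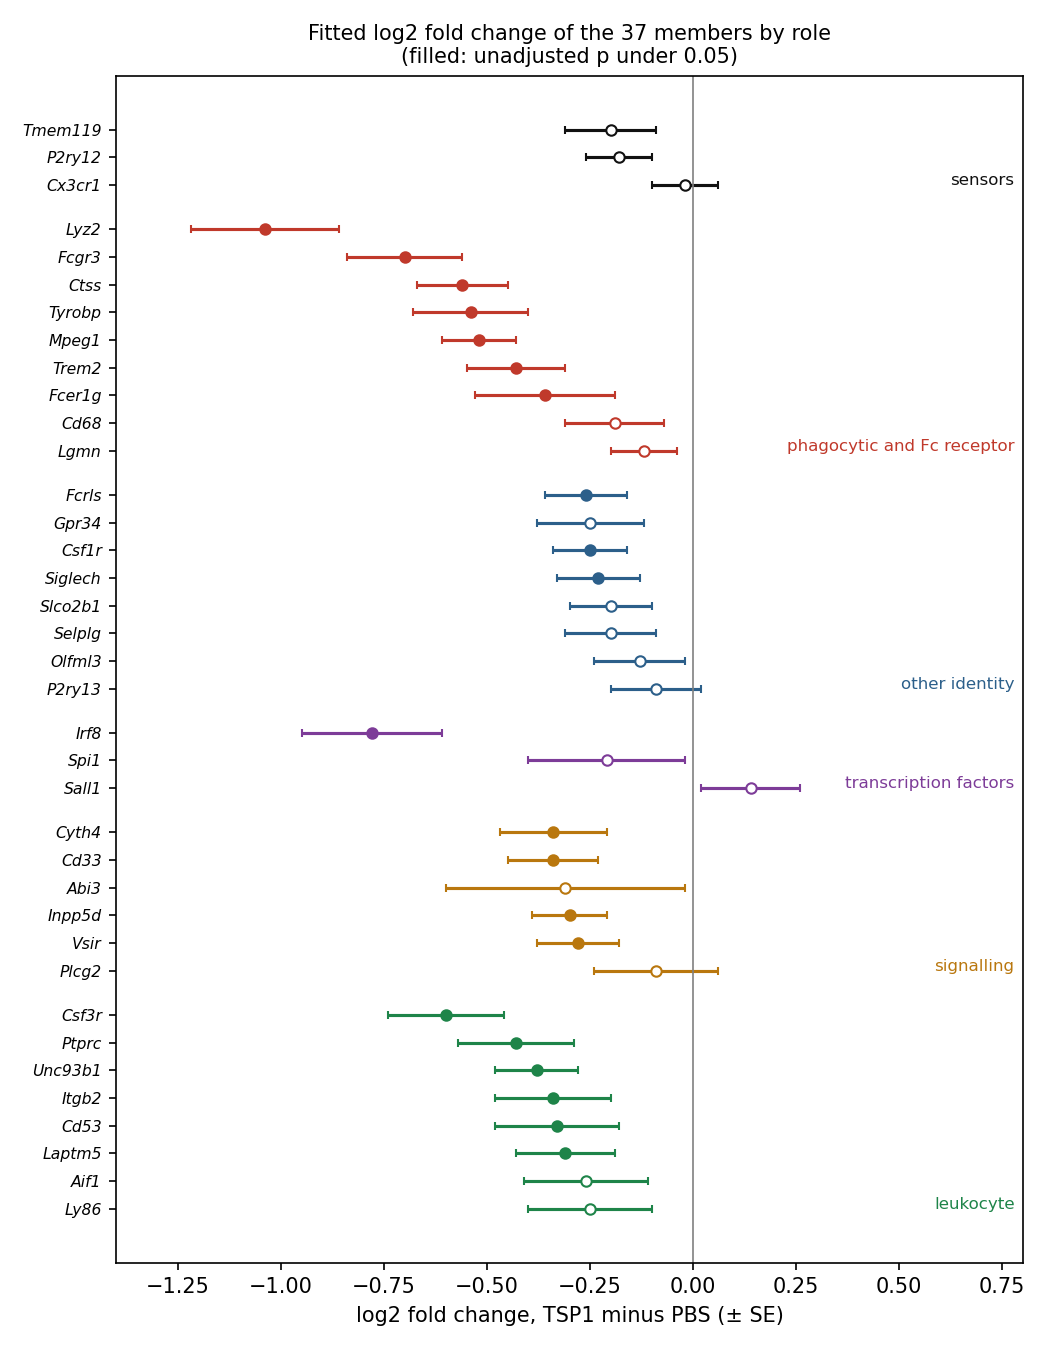
Fitted log2 fold change, TSP1 minus PBS, with its SE for each of the 37 genes, grouped by role; filled points have an unadjusted p under 0.05 in edgeR's quasi-likelihood test. Of the 37 genes, 36 lie below 0, with Sall1 above it at 0.14, and Lyz2 lies lowest at -1.04.

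The 3 sensors overlapped between the groups in every case. Cx3cr1, on chromosome 9 from 119901616 to 120069879 (GRCm38), had 59.8, 66.8, 70 and 53.5 CPM in TSP1 replicates 1 to 4 and 63.9, 62.4 and 63.6 in PBS replicates 1 to 3. TSP1 libraries thus lay on both sides of the closely grouped PBS libraries. The log2 fold change of Cx3cr1 was -0.02 (SE 0.08, edgeR FDR 0.968), and it was 0.05 without TSP1 replicate 4 and 0.09 when libraries were scaled to the sensors. P2ry12, on chromosome 3 from 59216272 to 59262871, had 38.5, 47.9, 43.5 and 37.8 CPM with TSP1 and 45.8, 49.2 and 47.2 with PBS. Tmem119, on chromosome 5 from 113793729 to 113800516, had 25.1, 36.5, 30.8 and 27.1 CPM with TSP1 and 33.2, 35.7 and 34.5 with PBS. For P2ry12 and Tmem119, TSP1 replicates 1 and 4 were the low libraries, while replicate 2 lay at or near the PBS level. P2ry12 had a log2 fold change of -0.18 (SE 0.08, edgeR FDR 0.537), and Tmem119 one of -0.20 (SE 0.11, edgeR FDR 0.594). The annotated span of Cx3cr1 takes in several other genes, of which Gorasp1, Csrnp1 and Xirp1 lie on the same strand. Counts of Cx3cr1 could thus hold reads of these genes even if strand was used. P2ry12 lies within Med12l, which is on the opposite strand, so its counts could hold Med12l reads if strand was not used.

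The phagocytic and Fc receptor genes were below 0 in 9 of 9 (48.9% of all genes), with a median log2 fold change of -0.52. Of the 9, 7 had an unadjusted p under 0.05 and were lower (5.44% of all genes), and 7 had groups that did not overlap (5.26% of all genes). Lyz2, the lysozyme of macrophages, lies on chromosome 10 from 117277331 to 117282321 and had 7.78, 5.11, 5.98 and 7.25 CPM with TSP1 against 16.1, 14.3 and 9.72 with PBS. Every TSP1 library lay below every PBS library, and the TSP1 mean was 6.53 ± 1.21 CPM (SD, n = 4) against a PBS mean of 13.4 ± 3.29 (SD, n = 3). The log2 fold change of Lyz2 was -1.04 (SE 0.18, edgeR FDR 0.112). Lyz2 has a near-identical neighbour, Lyz1, and the sources used here do not say how reads were shared between them. Fcgr3, the low-affinity Fc receptor that signals through Fcer1g, lies on chromosome 1 from 171051174 to 171064935 and had 13.1, 16.1, 14.7 and 12.5 CPM with TSP1 against 27.9, 22.5 and 18.2 with PBS. The groups did not overlap, and PBS replicate 1 was the highest (log2 fold change -0.70, SE 0.14, edgeR FDR 0.123). Fc receptor genes resemble each other in sequence, so reads may have been shared among them.

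Ctss, a lysosomal cysteine protease that also trims antigen for presentation, lies on chromosome 3 from 95526786 to 95556403 and had 60, 65.9, 68.4 and 51.5 CPM with TSP1 against 101, 93.2 and 77.1 with PBS. The log2 fold change of Ctss was -0.56 (SE 0.11, edgeR FDR 0.134), with no overlap between the groups. Mpeg1, a pore-forming protein of phagosomes, lies on chromosome 19 from 12460779 to 12465283 and had 36.9, 39, 42.4 and 31.5 CPM with TSP1 against 57.4, 54.8 and 49.1 with PBS. Its groups were likewise separate, and among the 37 genes its p was the smallest (log2 fold change -0.52, SE 0.09, edgeR FDR 0.112). Tyrobp, the adaptor of Trem2, had 10.2, 13.1, 13.1 and 9.32 CPM with TSP1 against 19.4, 14.7 and 15.8 with PBS (edgeR FDR 0.241, log2 fold change -0.54, SE 0.14). Fcer1g, the adaptor of Fc receptors, had 6.13, 8.39, 8.67 and 5.39 CPM with TSP1 against 8.84, 9.05 and 9.66 with PBS. Both adaptors were separate between the groups, Fcer1g by a narrow gap (log2 fold change -0.36, SE 0.17, edgeR FDR 0.515).

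Trem2 overlapped, because PBS replicate 3 lay among the TSP1 libraries. Its levels were 13.5, 15.1, 16.1 and 13.6 CPM with TSP1 and 20.5, 22.6 and 15.6 with PBS (edgeR FDR 0.288, log2 fold change -0.43, SE 0.12). The 2 remaining genes of this role lay closest to 0. Cd68, a glycoprotein of the lysosomal membrane, had 9.04, 8.34, 9.16 and 7.79 CPM with TSP1 and 10.7, 9.34 and 9.17 with PBS, groups that were separate only by the gap between 9.16 and 9.17 (log2 fold change -0.19, SE 0.12). Lgmn, an asparagine-specific lysosomal protease, had 88.3, 99, 105 and 97.8 CPM with TSP1 and 119, 98 and 101 with PBS, which overlapped (log2 fold change -0.12, SE 0.08). Per kilobase of exon, Ctss was the most abundant of the 9 genes with PBS, at 66.7 ± 9.11 CPM per kb (SD, n = 3), followed by Lgmn at 45.7 ± 4.78 and Tyrobp at 24.9 ± 3.66. The sensors lay at 14.1 (Cx3cr1), 18.6 (P2ry12) and 14.9 (Tmem119) CPM per kb.

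**Figure D2:**
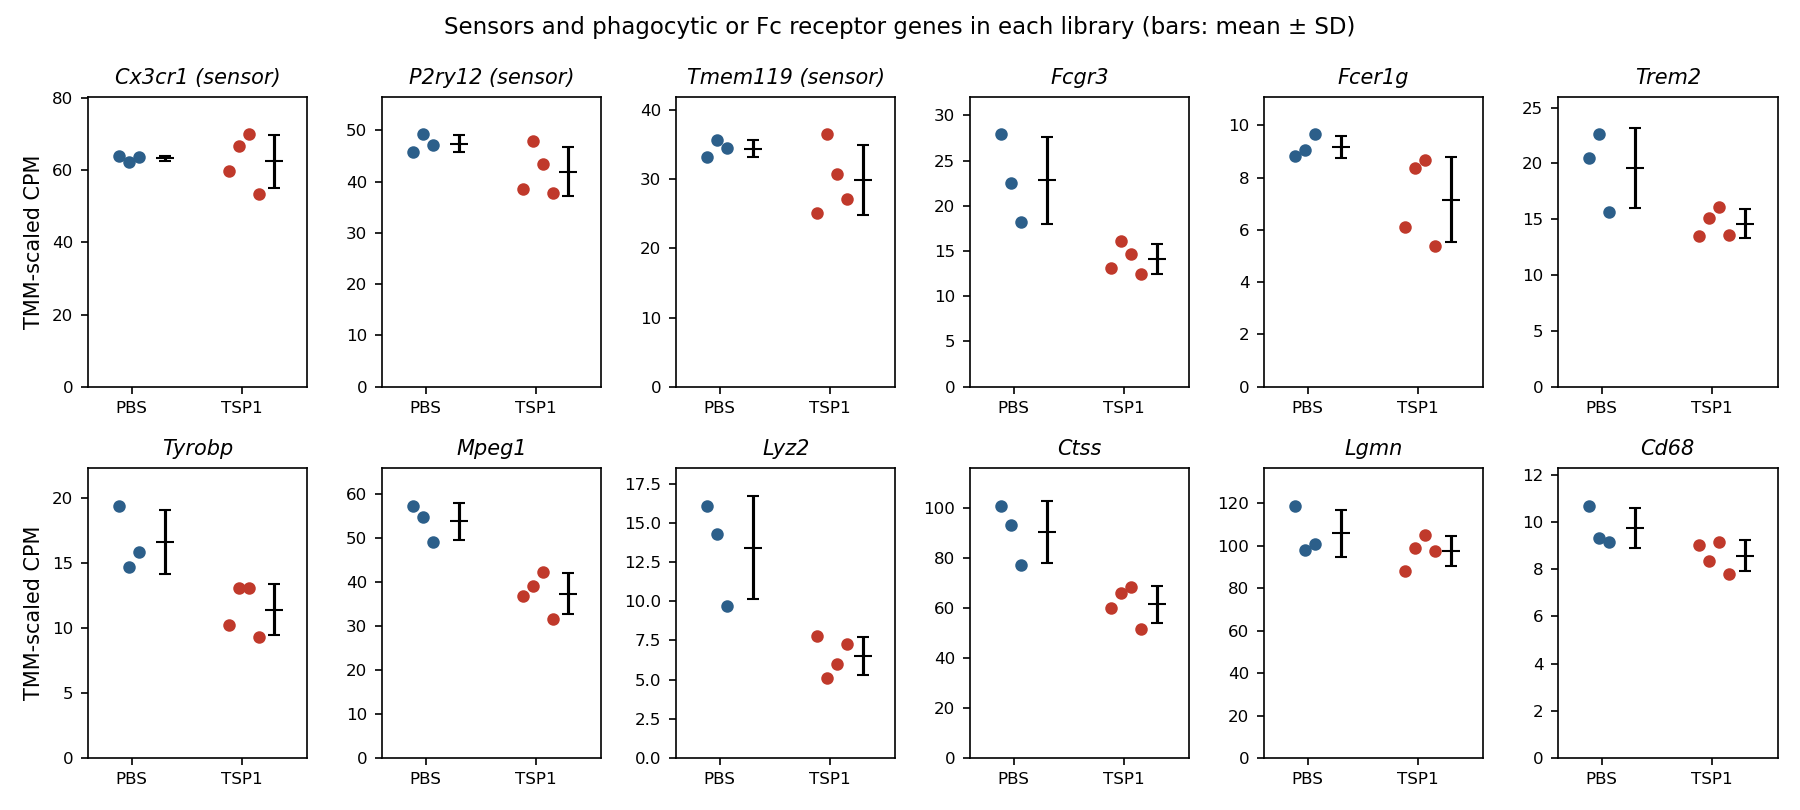
TMM-scaled CPM of the 3 sensors and the 9 phagocytic and Fc receptor genes, 1 point for each PBS (3) and TSP1 (4) library, with the mean and SD as bars and every axis starting at 0. Sensors overlap between groups, whereas Lyz2 lies at 5.11 to 7.78 CPM with TSP1 and 9.72 to 16.1 with PBS.

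The contrast between the roles was taken within each library, as the mean log2 CPM of the 9 phagocytic and Fc receptor genes minus that of the 3 sensors. It was -1.14, -1.37, -1.20 and -1.22 in TSP1 replicates 1 to 4 and -0.70, -0.90 and -1.05 in PBS replicates 1 to 3. All TSP1 values lay below all PBS values, with a gap of under 0.1 between TSP1 replicate 1 and PBS replicate 3. The means were -1.23 ± 0.10 (SD, n = 4) and -0.88 ± 0.18 (SD, n = 3), a difference of -0.35 that was -0.28 without Lyz2. Sensors alone did not separate the groups, at 5.25 to 5.62 log2 CPM with TSP1 and 5.53 to 5.58 with PBS, while the phagocytic genes did, at 4.03 to 4.31 and 4.50 to 4.83. These values are a description and carry no test, since the genes were proposed with results of these data known. The difference was smallest without PBS replicate 1, at -0.25.

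**Figure D3:**
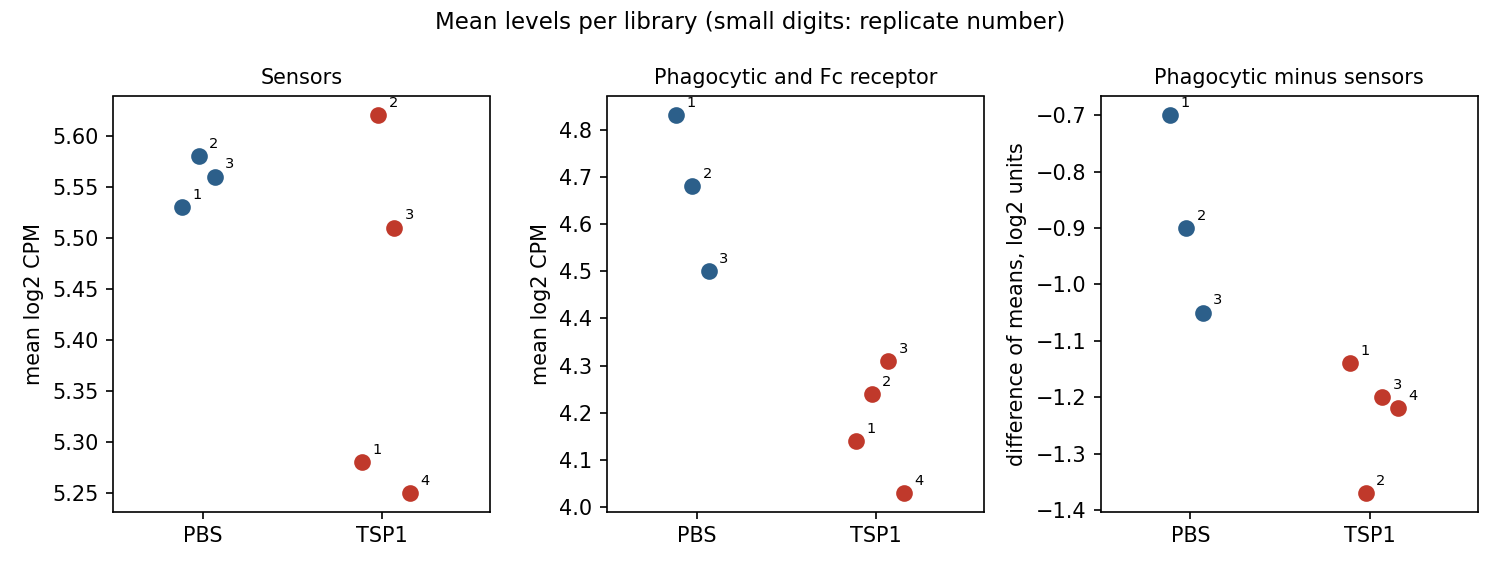
Mean log2 CPM of the sensors (left) and of the phagocytic and Fc receptor genes (middle), and their difference in log2 units (right), 1 point per library with its replicate number. On the right the TSP1 libraries lie between -1.37 and -1.14 and the PBS libraries between -1.05 and -0.70.

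When the libraries were scaled to the summed counts of the 3 sensors in place of TMM, the phagocytic genes kept a median log2 fold change of -0.41. This scaling moved the median of all genes to 0.128, so values are read against that shift. Lyz2 had a log2 fold change of -0.90 (edgeR FDR 0.000563) and Fcgr3 of -0.59 (edgeR FDR 0.0344) on this scale, the 2 of 37 that passed, against 0.122% of all genes lower and 0.238% higher at that FDR on this scale. Mpeg1 (-0.41), Ctss (-0.45) and Tyrobp (-0.44) did not pass on it. Lyz2 and Fcgr3 changed less on the sensor scale than with TMM (-1.04 and -0.70). Their SEs were 0.18 and 0.15, against 0.18 and 0.14 with TMM. The lower FDRs thus do not reflect a larger change. The fit takes the sensor factors as known, so these FDRs leave out the noise in those factors. Relative to the mean of the sensors in the same library, a view added after the data were seen, 7 of the 34 other genes had all TSP1 libraries below all PBS libraries, against 1.02% of all genes. They were Lyz2, Fcgr3, Ctss, Mpeg1 and Tyrobp of the phagocytic role, with Irf8 and Aif1. On the same measure, 2 of 8 astrocyte markers and 0 of 6 endothelial markers were lower. The share over all genes was 5.26% without reference to the sensors, so the reference itself changed with this view. Signs turned on the sensor scale for Cx3cr1 (0.09), P2ry13 (0.03) and Plcg2 (0.04), values below the 0.128 of all genes. Cx3cr1 is itself part of this scale.

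**Figure D4:**
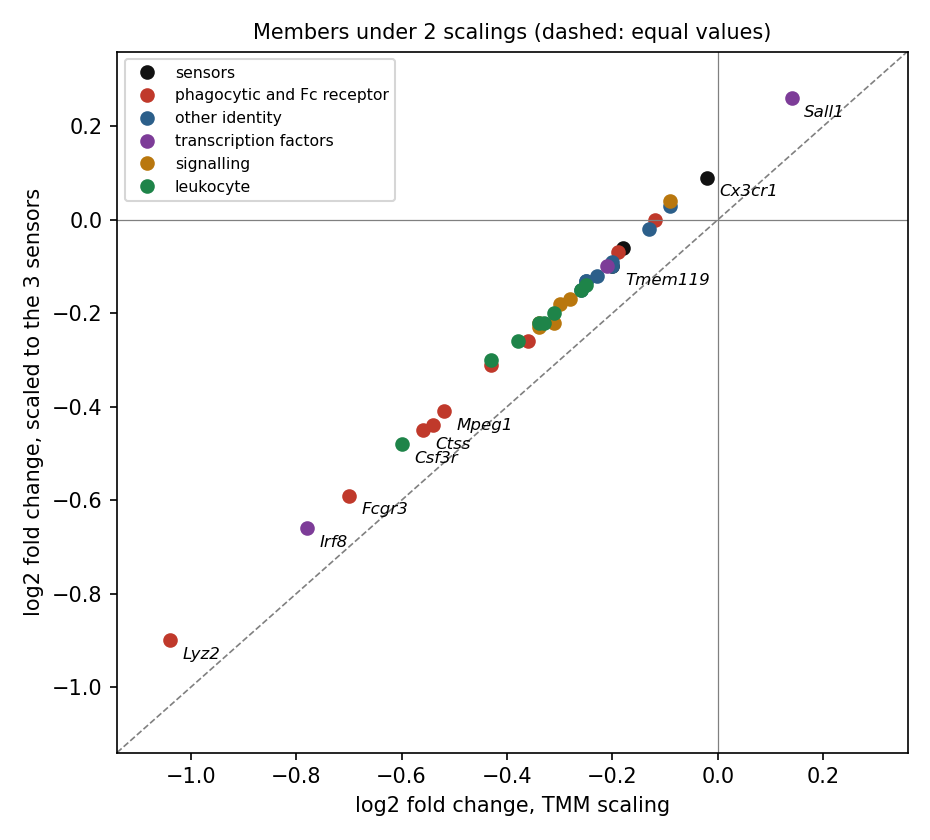
Log2 fold change of each of the 37 genes with TMM scaling (horizontal) against scaling to the 3 sensors (vertical), coloured by role, with a dashed line of equal values. All points lie above the line, and Lyz2 stays lowest on both axes, at -1.04 and -0.90.

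Other count tests called some of these genes. DESeq2 called 6 of 37 lower (0.411% of the genes to which it gave an adjusted p), and edgeR's exact test called the same 6 (0.465% of all genes): Lyz2, Ctss, Mpeg1, Fcgr3, Irf8 and Csf3r. The DESeq2 adjusted p was 0.000273 for Lyz2, 0.000919 for Ctss, 0.00143 for Mpeg1, 0.00402 for Fcgr3, 0.0259 for Irf8 and 0.0465 for Csf3r. Without PBS replicate 1, DESeq2 called Lyz2 alone. With each of the 7 libraries left out in turn, Lyz2 was called in 7 of 7 fits and Fcgr3, Mpeg1 and Ctss in 6, while Csf3r was called in 2 and Irf8 in 1. Calls were not confined to microglial genes. With all libraries, both tests called 3 of 6 endothelial and 1 of 8 astrocyte markers lower. They called 0 of 7 neuron and 0 of 6 oligodendrocyte markers lower. The endothelial gene Vwf had a DESeq2 adjusted p of 2.03e-06.

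Of the 3 transcription factors, 1 was lower at an unadjusted p under 0.05 (5.44% of all genes). Irf8, which drives the macrophage programme together with Spi1, lies on chromosome 8 from 120736358 to 120756694 and had 6.53, 5.43, 5.98 and 4.2 CPM with TSP1 against 8.03, 11.6 and 8.8 with PBS. Its groups did not overlap, and its log2 fold change of -0.78 (SE 0.17, edgeR FDR 0.171) was the second lowest of the 37. Irf8 overlaps Gm20388, a protein-coding gene on the same strand, so reads may have been shared between them. Spi1 had a log2 fold change of -0.21 (SE 0.19) and Sall1 of 0.14 (SE 0.12), and both overlapped between the groups. Sall1 was the 1 gene of the set above 0.

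The other identity genes were below 0 in 8 of 8 (48.9% of all genes), with a narrow range of -0.26 to -0.09 and a median of -0.22. None had groups that were separate (5.26% of all genes were separate and lower). Csf1r, the receptor for the survival factors Csf1 and Il34, had 148, 146, 148 and 120 CPM with TSP1 and 180, 178 and 144 with PBS (edgeR FDR 0.424, log2 fold change -0.25, SE 0.09). TSP1 replicate 4 was low, and PBS replicate 3 lay within the range of the TSP1 libraries. Fcrls, an Fc receptor-like gene of mouse microglia, had 27.8, 29.4, 34.9 and 25.3 CPM with TSP1 and 38.8, 32.4 and 34.2 with PBS (log2 fold change -0.26, SE 0.10). Siglech, a sialic acid-binding lectin, had 16.8, 18.8, 20.8 and 16.6 CPM with TSP1 and 21.8, 22.1 and 20.3 with PBS (log2 fold change -0.23, SE 0.10). In both, TSP1 replicate 3 reached into the PBS range. The log2 fold change of the receptor genes was -0.25 (SE 0.13) for Gpr34 and -0.09 (SE 0.11) for P2ry13, that of the adhesion ligand gene Selplg -0.20 (SE 0.11), the transporter gene Slco2b1 -0.20 (SE 0.10) and the matrix gene Olfml3 -0.13 (SE 0.11).

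Genes of signalling below the surface receptors were below 0 in 6 of 6 (48.9% of all genes), with a median of -0.30. Of the 6, 4 were lower at an unadjusted p under 0.05 (5.44% of all genes). Inpp5d, the lipid phosphatase SHIP1 that restrains signals from Fc receptors and Trem2, had 22.5, 22.3, 22.8 and 18.8 CPM with TSP1 and 24.8, 29 and 25.7 with PBS. Cd33, a sialic acid-binding receptor, had 17.8, 17.4, 14.8 and 13.5 CPM with TSP1 and 21.5, 20.7 and 17.9 with PBS. Both were separate between groups, Inpp5d at a log2 fold change of -0.30 (SE 0.09, edgeR FDR 0.32) and Cd33 at -0.34 (SE 0.11, edgeR FDR 0.349). Cyth4, an exchange factor for Arf proteins, had 10.6, 16.3, 14.5 and 13.6 CPM with TSP1 and 16, 16.7 and 19.7 with PBS (log2 fold change -0.34, SE 0.13). Vsir, the immune checkpoint protein VISTA, had 35.1, 42.8, 38.1 and 30.6 CPM with TSP1 and 41.7, 48.2 and 43.8 with PBS (log2 fold change -0.28, SE 0.10). TSP1 replicate 2 overlapped the PBS libraries in these last genes. Abi3, a regulator of actin, had a log2 fold change of -0.31 with a wide SE of 0.29, and the phospholipase gene Plcg2 of -0.09 (SE 0.15), which was 0.00 without PBS replicate 1.

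Genes shared with other leukocytes were below 0 in 8 of 8 (48.9% of all genes), with a median of -0.33. Of the 8, 5 had all TSP1 libraries below all PBS libraries (5.26% of all genes). Csf3r, the receptor for granulocyte colony-stimulating factor, lies on chromosome 4 from 126024550 to 126044440 and had 9.76, 11.3, 8.39 and 9.32 CPM with TSP1 against 16.9, 15.3 and 11.7 with PBS (edgeR FDR 0.171, log2 fold change -0.60, SE 0.14). PBS replicate 3 lay just above the highest TSP1 library. Ptprc, the leukocyte phosphatase CD45, had 5.8, 5.33, 5.82 and 6.7 CPM with TSP1 and 7.79, 8.28 and 7.82 with PBS (log2 fold change -0.43, SE 0.14). Unc93b1, which carries nucleic acid-sensing Toll-like receptors to endosomes, had 19.8, 19.7, 21.8 and 16.9 CPM with TSP1 and 24.7, 28.3 and 23.4 with PBS (log2 fold change -0.38, SE 0.10). Ptprc and Unc93b1 were separate between the groups by more than the gap seen for Csf3r. The integrin gene Itgb2 had 6.4, 6.62, 6.91 and 6.27 CPM with TSP1 and 9.32, 6.92 and 8.62 with PBS (log2 fold change -0.34, SE 0.14). The tetraspanin gene Cd53 had 6.07, 8.39, 8.29 and 5.94 CPM with TSP1 and 9.22, 8.57 and 9.23 with PBS (log2 fold change -0.33, SE 0.15). Itgb2 and Cd53 were separate by narrow gaps. Laptm5, a lysosomal membrane protein, had 41.5, 46, 38.8 and 30.7 CPM with TSP1 and 50.2, 51.3 and 44.3 with PBS, which overlapped through TSP1 replicate 2 (log2 fold change -0.31, SE 0.12). Aif1, known as IBA1, and Ly86 both overlapped (log2 fold change -0.26, SE 0.15, and -0.25, SE 0.15).

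Lyz2, Csf3r, Ptprc and Itgb2 are also expressed by blood leukocytes. A list of 10 monocyte and neutrophil markers (Ccr2, S100a8, S100a9 and others) summed to 0.538 to 1.91 CPM with TSP1 and 1.66 to 4.92 with PBS, with 7 of 10 at 0 in at least 1 library and none abundant enough to be tested. Ngp was at 0 in all 4 TSP1 libraries. The sums were 1.72, 0.538, 0.988 and 1.91 CPM in TSP1 replicates 1 to 4 and 4.92, 1.66 and 2.08 in PBS replicates 1 to 3. They rest on few reads. S100a9, for example, had 6, 1, 1 and 6 counts in TSP1 replicates 1 to 4 and 27, 4 and 14 in PBS replicates 1 to 3. Lymphocyte markers summed to 0.264 to 0.7 CPM with TSP1 and 0.489 to 0.769 with PBS. Markers of macrophages at the brain's borders, such as Mrc1 and Cd163, were tested for 7 of 8, at a median of 0.01 on the log2 scale. Of the 7, 3 were below 0 and 4 above. All 8 summed to 28.4 to 39.7 CPM with TSP1 and 40.3 to 44.3 with PBS, most of it Stab1 (means of 25.5 and 31.5 CPM). Stab1 had the smallest p (log2 fold change -0.31, SE 0.10). Cd163 went the other way, with groups that did not overlap (log2 fold change 0.45, SE 0.22), and Mrc1 had -0.05 (SE 0.22). The part of these cells in the results was not tested.

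The rest of the pathway was read from lists of genes outside the 37. Among the ligands, Cx3cl1 and Il34 each had a log2 fold change of 0.03 (SE 0.08), Csf1 of -0.06 (SE 0.08) and Apoe, a lipid carrier that Trem2 binds, of -0.14 (SE 0.10). Tgfb1, which sustains microglial identity, had the smallest p among them, with 5.61, 5.6, 6.75 and 5.12 CPM with TSP1 and 8.79, 8.16 and 7.27 with PBS, groups that did not overlap (log2 fold change -0.49, SE 0.15, edgeR FDR 0.311). Csf3 was too low to be tested. Of 14 tested genes of Fc receptor and adaptor signalling, 13 were below 0 (48.9% of all genes), with a median of -0.40, and 6 were lower at an unadjusted p under 0.05 (5.44% of all genes). The smallest p there was that of Vav1, an exchange factor downstream of Syk (log2 fold change -0.68, SE 0.19), while Syk itself had -0.26 (SE 0.13). Of 23 further microglial genes, 21 were below 0 (48.9% of all genes), with a median of -0.31, and 11 were lower at an unadjusted p under 0.05 (5.44%). C1qa, a subunit of the complement initiator C1q, had the smallest p of the 23 (log2 fold change -0.52, SE 0.10, edgeR FDR 0.128).

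Genes known to rise in microglia near disease lesions had a median of -0.13. Of 14 tested, 13 were below 0 (48.9% of all genes) and 5 were lower at an unadjusted p under 0.05 (5.44% of all genes), with the lysosomal protease gene Ctsd at the smallest p (log2 fold change -0.25, SE 0.08). Of the genes for the uptake of dying cells, 6 of 9 were below 0 (48.9% of all genes), with a median of -0.10. Of these 9, 1 was lower at an unadjusted p under 0.05 (5.44% of all genes) and 1 was higher (4.21%). The lower gene was Itgb5, an integrin subunit (log2 fold change -0.29, SE 0.08). The higher gene was Elmo1, an adaptor for Rac activation (log2 fold change 0.17, SE 0.06). At an FDR under 0.05 by the edgeR quasi-likelihood fit, 0 of the 60 tested genes of these lists were called (0% of all genes). At an unadjusted p under 0.05, 24 of the 60 were lower (5.44% of all genes) and 1 was higher (4.21%). DESeq2 called 1 of the 60 lower (C1qa, adjusted p = 0.00431), against 0.411% of the genes to which it gave an adjusted p. The exact test of edgeR called 2 lower, against 0.465% of all genes. These were C1qa (adjusted p = 0.00343) and B2m (adjusted p = 0.00946), the light chain of MHC class I.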

How the data were processed

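RNA was sequenced from mPFC of 7 mice, 4 given rhTSP1 and 3 PBS, per the labels. The deposited table holds read counts per gene, whole numbers with totals that differ between libraries. The submitters' processing notes name GRCm38 and mm10. Not given in the sources used here are the aligner, counter, annotation and use of strand. Column names are numbers, each found at the start of 1 sample's description. Symbols and coordinates came from GENCODE M21 (25375 of 25467 genes matched, 92 did not).

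Counts were fitted for all 17211 genes that passed filterByExpr, with TMM scaling and edgeR 4.0.16 (R 4.3.3, robust quasi-likelihood, group as the 1 term, two-sided, Benjamini-Hochberg FDR under 0.05 over all genes). The biological coefficient of variation was 9.8%, and the median SE was 0.12 log2 units for the 37 genes. Mean log2 CPM used a prior count of 2. Alternatives were RLE size factors, DESeq2 1.42.0, edgeR's exact test, limma 3.58.1 voom, no filter, 5 CPM in 3 libraries, a block on the replicate number, offsets for exon length and GC content, scaling to the sensors, and leaving out each library. DESeq2 gave no adjusted p for 9398 genes. Only the quasi-likelihood steps were tested on simulated counts.

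All 37 genes are named, with values in every library for the sensors, the phagocytic role and any other gene at an unadjusted p under 0.05. From each list outside the 37, the gene of smallest p and the ligands are named, and further genes were chosen after their values were seen. The genes and lists were chosen with earlier results of these data known. DESeq2 with single libraries left out, overlap relative to the sensors and the promoter search were added after the data were seen. Each library is 1 mouse, as the series describes 7 different mice. Replicates differed by more than sampling noise (chi-square over degrees of freedom from 4.26 to 14.75), and each was kept as its own replicate. No batch is labelled.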

Additional observations from a re-analysis of the deposited data

Results flagged for a closer look

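TSP1 replicate 4 stood apart from the other TSP1 libraries in 2 of the 38 values examined for a single distant library. Csf1r was at 120 CPM there, with a gap to the next library of 0.937 of the group's range, and Inpp5d was at 18.8 CPM, with a gap of 0.864 of the range, above the 95% limit of Dixon's test for 4 libraries. Chance gives such a gap in about 1 in 20 values. Without this library the log2 fold change of Csf1r was -0.18 (-0.25 with it). The same library held more striatal and oligodendrocyte marker RNA than the others, and the part of that in these values was not tested.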

How the results depend on the processing

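Of 591 values of single genes under the alternatives, 566 kept their direction and their side of the threshold, 18 passed it where they had not before, 0 lost it and 7 turned sign, in 3 genes. Turned signs were those of Cx3cr1 (0.05 with the replicate block, 0.09 scaled to the sensors, and -0.08 to 0.05 with single libraries left out). The others were P2ry13 (0.03 scaled to the sensors) and Plcg2 (0.04 scaled to the sensors, and -0.20 to 0.00 with single libraries left out). The sensor scale includes Cx3cr1 and moved the median of all genes to 0.128. The count of genes called was 0 with the quasi-likelihood test, 19 with no low-count filter, 104 with the exact test and 87 with DESeq2, and 0 to 9 with single libraries left out. Of the 37 genes, 0 were called, 2 with no filter, 6 with the exact test, 6 with DESeq2 and 0 to 2 with single libraries left out. The 6 called by DESeq2 became 1 to 5 with single libraries left out, the lowest without PBS replicate 1. Groups that did not overlap numbered 15, and 7 relative to the sensors. The cause of these differences was not tested. The median over the 37 genes was -0.35 to -0.20 with single libraries left out, nearest to 0 without TSP1 replicate 4, and the phagocytic minus sensor difference was -0.43 to -0.25.

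The replicate numbers gave no sign of pairing: same-numbered libraries had correlations of -0.261, -0.033 and 0.01 in their deviations from the group means. Differently numbered libraries had -0.121 to 0.218. So few libraries cannot exclude a pairing. With the number as a replicate block, 0 genes were called, the median over the 37 genes was -0.21, 35 were below 0 and 15 had an unadjusted p under 0.05. With 4 and 3 libraries, changes near the size of the sensors' SE, 0.08 to 0.11 log2 units, could not be resolved.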
